A study of Drosophila melanogaster with 6 samples.

Results

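The mRNAs of 7 octopamine and tyramine receptors were followed from fly head lysate into RNA recovered with the RNA-binding protein Zn72D. The members were chosen by their FlyBase gene symbols: Oamb, Octalpha2R, Octbeta1R, Octbeta2R, Octbeta3R, Oct-TyrR and TyrR. All 7 were found among the 17453 genes of the tables, and all 7 passed the filter on low counts that left 11670 genes for testing. The flies were adults, males and females pooled, of the genotype y1 w*; P{PTT-GA}Zn72D[CA07703], a protein trap that adds GFP to the product of the Zn72D gene. Every library came from these flies, so input and RIP share the tagged allele, and no untagged or mock precipitation was analysed here. RNA was sequenced from 3 inputs (a small part of the head lysate) and from 3 RNA immunoprecipitates made with an anti-GFP antibody (RIP). The labels number both groups 1 to 3 without saying that a number marks separate fly collections, so p-values refer to the variation among these 3 and 3 samples, part or all of which may be technical.

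Octopamine and tyramine are made from tyrosine in small sets of neurons and act in insects much as noradrenaline and adrenaline do in vertebrates, on arousal, learning, feeding and locomotion. Their receptors are G protein-coupled receptors with the form of vertebrate adrenergic receptors. Receptors of the beta class raise cAMP through a stimulatory G protein, the alpha1-like receptor Oamb raises calcium, and receptors of the alpha2-like and mixed octopamine-tyramine kinds lower cAMP. Zn72D is a zinc finger protein known for roles in dosage compensation and in RNA editing by Adar.

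Libraries held 28070655 to 38331703 expected counts. rRNA took 78.1% to 83.0% of the counts in input and 4.73% to 9.39% in RIP, so the input libraries held 5864723 to 8182107 counts outside rRNA and the RIP libraries 25434735 to 36377598. CPM are counts scaled to the library size multiplied by the TMM factor of each library. The labelled tissue matched its markers: mean CPM of the neuronal gene elav were 146 for input and 492 for RIP. Those of the rhodopsin gene ninaE were 4407 and 4131. Of 7 neuronal markers 6 rose and none fell, and their summed level was 3451 to 4651 CPM in input and 7129 to 8842 CPM in RIP. Over all tested genes 20.2% were called higher and 17.0% lower. Once the rise of fold changes with transcript length (below) was removed, 3 neuronal markers were called higher and 0 lower. Of all tested genes 10.4% were then called higher and 10.5% lower. The photoreceptor markers (0 of 7 higher, 3 lower) summed to 8760 to 9510 CPM in input and 6535 to 7405 in RIP, the glial markers (0 of 6 higher, 1 lower) to 465 to 763 and 419 to 627, and the muscle markers (1 of 8 higher, 5 lower) to 5803 to 6517 and 5395 to 6341. Neither the 7 fat body markers (3080 to 7082 CPM in input, 3418 to 6911 in RIP) nor the 5 of 6 testis markers that were tested (17.6 to 110 and 12.6 to 71.2) held a called gene. With the replicate number as a block, 4 fat body markers were called lower and 1 higher, and 4 testis markers lower. That block called 32.7% of all tested genes higher and 27.7% lower. In both groups replicate 3 was the highest in every fat body marker and the lowest in every testis marker tested. Yp1 had 751, 701 and 1997 CPM in inputs 1 to 3 and 695, 661 and 1938 CPM in RIP. The testis gene Mst87F had 26.9, 25.7 and 3.45 CPM in input and 10.6, 8.57 and 1.77 CPM in RIP. No listed marker was at 0 in every library. The part that the higher neuronal total has in the receptor values was not tested. Input and RIP both came from head lysate, so a marker difference between them is not read here as a difference in cell number. A marker level within a library does not tell the number of cells of a type from the RNA per cell.

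The genes of 6 receptors lie on chromosome arm 3R and that of Oct-TyrR on 3L (dm6). Octbeta3R (12511570 to 12548229) and Octbeta2R (12550625 to 12595725) are neighbours on the minus strand of 3R. TyrR (17750129 to 17763188), Octalpha2R (18799280 to 18849224) and Oamb (20689018 to 20714577) lie on the minus strand as well, and Octbeta1R (22497215 to 22520078) on the plus strand. Oct-TyrR spans 22035003 to 22065279 on the plus strand of 3L. The receptor genes are long: their spans of 13060 to 49945 bases compare with a median of 2669 bases over 11118 protein-coding genes tested, and each has a longer span than at least 86.3% of those genes. Their longest annotated transcripts run from 3682 bases (Oct-TyrR) to 9804 bases (Octalpha2R), against a median of 1996. Octalpha2R stands apart through its 3′ UTR of 6748 to 6871 bases.

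Few receptor reads could have come from another gene. The exons of 6 receptors overlap no other annotated gene outside transposons. The exception is Octbeta2R, whose longest transcripts hold the 100 bases of the microRNA gene mir-284 (3R, 12551515 to 12551614, same strand) in their 3′ UTR. mir-284 was listed at 0.75 counts in input 1 and at 0 in the other libraries. The authors' RSEM gave a posterior SD of 0.41 counts for Octbeta2R in input 1 and of 0 for all other receptor values. The gene of the neuropeptide Hug and the noncoding gene lncRNA:CR46016 lie inside the span of Octbeta3R without touching its exons.

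All 7 receptor mRNAs were more abundant in RIP than in input, by 1.49-fold to 3.13-fold (edgeR quasi-likelihood test, adjusted p under 0.05), and all 7 were called with the replicate block as well. In all 7 the 3 RIP values lay above the 3 input values. Over all tested genes, 20.2% were called higher (32.7% with the block) and 17.0% lower (27.7% with the block), and 26.5% had all RIP values above all input values. Among the 1866 tested genes whose mean transcript length lies in the range of the receptors (3682 to 9788 bases), 67.0% were called higher and 0.643% lower. The median log2 fold change was 1.18 for the receptors, 0.058 for all tested genes and 0.64 for genes in that length range. TMM scaling takes most genes to be equal between groups, so each fold change is measured against the majority of genes and not against an absolute amount of RNA.

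**Figure D1:**
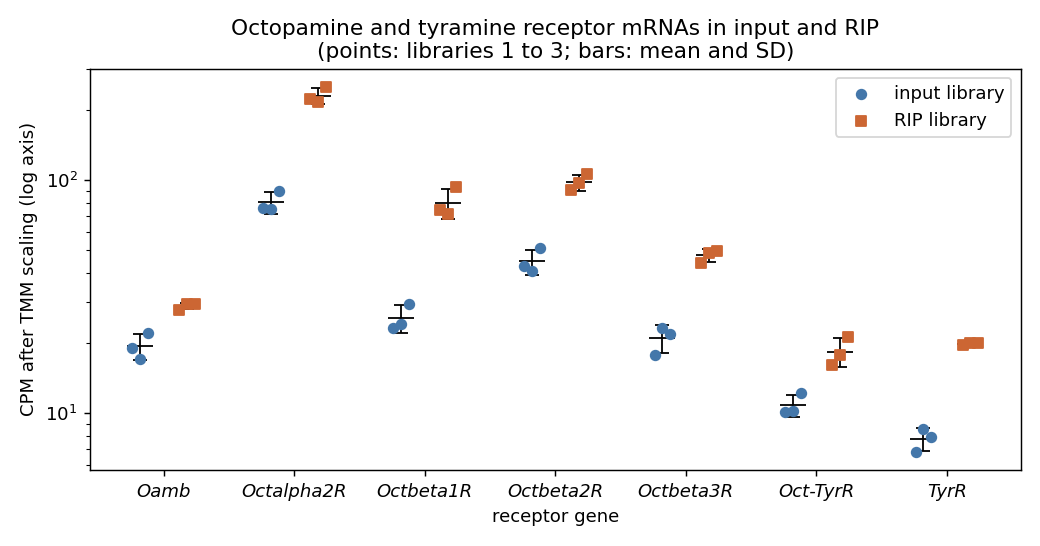
CPM of each receptor mRNA after TMM scaling (log axis) in the 3 input libraries (circles) and the 3 RIP libraries (squares), with the mean and SD of each group. The 3 RIP values lie above the 3 input values for each receptor, from Oamb (19.4 to 28.9 CPM) to Octalpha2R (80.4 to 231 CPM).

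Of the alpha-like octopamine receptors, Octalpha2R had the highest CPM of the 7 in both groups, and Oamb had the smallest rise. Octalpha2R (FBgn0038653), an alpha2-like receptor that lowers cAMP, had 75.7, 75.2 and 90.4 CPM in inputs 1 to 3 and 224, 216 and 252 CPM in RIP 1 to 3. It rose 2.87-fold, a log2 fold change of 1.52 ± 0.11 (SE; edgeR adjusted p = 0.000415), and its log2 fold change was above that of 98.6% of all tested genes and of 96.4% of genes in the length range. Oamb (FBgn0024944), the alpha1-like receptor known from the mushroom bodies, where it serves appetitive learning, gave 18.96, 17.1 and 21.98 CPM in inputs 1 to 3 against 27.8, 29.4 and 29.5 CPM in RIP. Its rise of 1.49-fold (log2 0.58 ± 0.11, edgeR adjusted p = 0.00892) was the smallest of the 7, and 44.1% of genes in the length range lay below it.

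The beta class, whose receptors raise cAMP, rose as a group of 3. Octbeta1R (FBgn0038980), a receptor known to restrain synaptic growth at the larval neuromuscular junction, gave 23.2, 24.0 and 29.5 CPM in inputs 1 to 3 against 74.5, 71.97 and 93.7 CPM in RIP. The 3.13-fold rise (log2 1.65 ± 0.15, edgeR adjusted p = 0.000691) was the largest of the 7 and lay above that of 97.6% of genes in the length range. Octbeta2R (FBgn0038063), which acts in ovulation and, at the larval neuromuscular junction, in the growth of terminals, had 42.7, 40.6 and 51.1 CPM in the inputs, compared with 90.6, 97.4 and 106 CPM after precipitation. It rose 2.19-fold (log2 1.13 ± 0.12, edgeR adjusted p = 0.00102). Octbeta3R (FBgn0250910), which acts in the prothoracic gland at metamorphosis, had 17.8, 23.3 and 21.9 CPM in the inputs, compared with 44.2, 48.8 and 49.6 CPM after precipitation. It rose 2.26-fold (log2 1.18 ± 0.12, edgeR adjusted p = 0.00102), and 83.5% (Octbeta2R) and 85.7% (Octbeta3R) of genes in the length range lay below these rises.

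The receptors that respond to tyramine were the least counted. Oct-TyrR (FBgn0004514), a receptor for both amines that lowers cAMP and is needed for normal odour avoidance, gave 10.1, 10.2 and 12.2 CPM in inputs 1 to 3 against 16.1, 17.7 and 21.2 CPM in RIP. It rose 1.70-fold (log2 0.76 ± 0.15, edgeR adjusted p = 0.00814), with 59.97% of genes in the length range below it. TyrR (FBgn0038542), a receptor specific for tyramine, had 6.81, 8.56 and 7.88 CPM in the inputs, compared with 19.6, 19.95 and 20.1 CPM after precipitation. Its 3 RIP values hardly differed, and its rise was 2.56-fold (log2 1.36 ± 0.12, edgeR adjusted p = 0.000578), above 93.1% of genes in the length range. The third receptor of this branch, TyrRII (FBgn0038541), is the neighbour of TyrR on the other strand and is not among the 7. It had 1.09, 1.61 and 2.42 CPM in input and 2.45, 2.46 and 2.27 CPM in RIP, which overlap, and did not pass (log2 0.48 ± 0.30, edgeR adjusted p = 0.275). TyrRII was called higher without input replicate 3 (log2 0.83), without replicate 3 in both groups (log2 0.67), in TPM and when scaled by library size.

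Replicate 3 gave the highest CPM of its group in 5 of the 7 receptors in input (all but Octbeta3R and TyrR) and in all 7 in RIP. Within same-numbered libraries the log2 difference of RIP over input stayed above 0 for all 7. It was 1.68, 1.58 and 1.67 for Octbeta1R in numbers 1 to 3, and 1.56, 1.52 and 1.48 for Octalpha2R. Oamb varied most in proportion to its size, at 0.55, 0.78 and 0.42. Without replicate 3 in both groups all 7 receptors were still called higher (24.7% of 12223 genes were, and 28.6% lower), at log2 0.50 for Oamb to 1.47 for Octbeta1R.

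Fold changes rose with transcript length across the transcriptome, and the receptors sit on the long side. With the length trend of each library removed by an offset, 5 of the 7 receptors were still called higher (10.4% of all tested genes were, and 10.5% lower). Among the 1866 genes in the length range, 368 were then called higher and 318 lower. Octbeta1R stood at log2 1.11 (edgeR adjusted p = 0.00443), TyrR at 0.75, Octalpha2R at 0.68, Octbeta2R at 0.48 and Octbeta3R at 0.47 (adjusted p = 0.0282). The calls for Oamb (log2 0.070, edgeR adjusted p = 0.624) and Oct-TyrR (log2 0.27, edgeR adjusted p = 0.182) ended. The median log2 fold change was then 0.48 for the receptors, 0.059 for all tested genes and -0.0095 for genes in the length range. With the replicate number as a block as well, 6 receptors were called higher (27.6% of all tested genes were). Oct-TyrR passed (log2 0.27, edgeR adjusted p = 0.0237) and Oamb did not (log2 0.074, edgeR adjusted p = 0.467). In that fit 574 of the 1866 genes in the length range were called higher and 555 lower. The shortest of the 7 transcripts on average, those of Oct-TyrR, Oamb and Octbeta1R (3682, 3767 and 3936 bases), held both the smallest changes and the largest one, so length did not order the receptors among themselves.

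**Figure D2:**
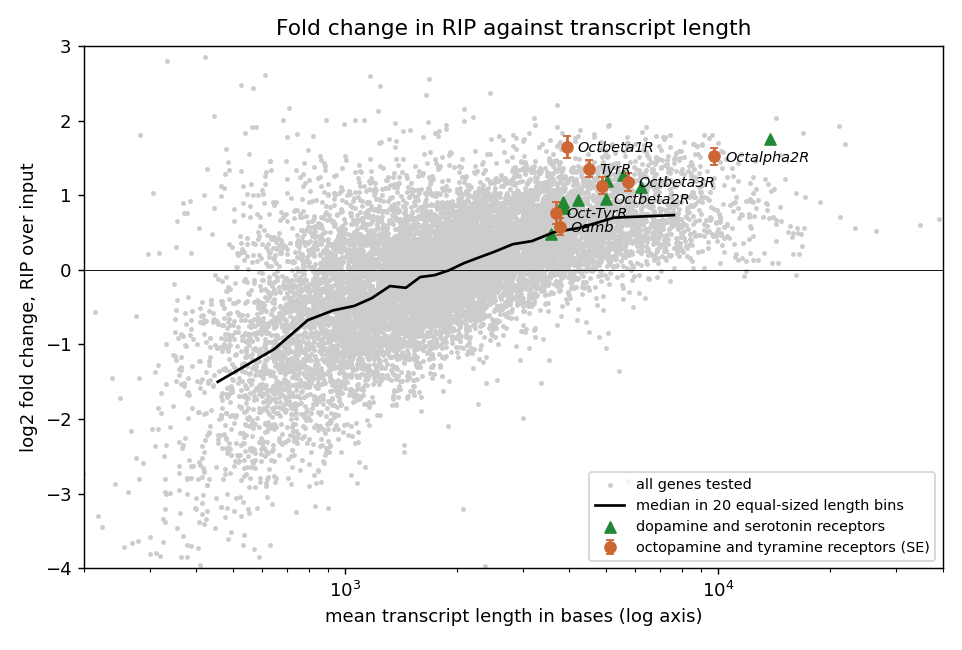
Log2 fold change of RIP over input against mean transcript length (log axis) for all genes tested (grey), the dopamine and serotonin receptors (triangles) and the 7 octopamine and tyramine receptors (circles, with SE). The black line joins the medians of 20 length bins of equal size and rises with length. Oamb at 0.58 lies near it and Octbeta1R at 1.65 well above it. 109 genes lie outside the axes.

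**Figure D3:**
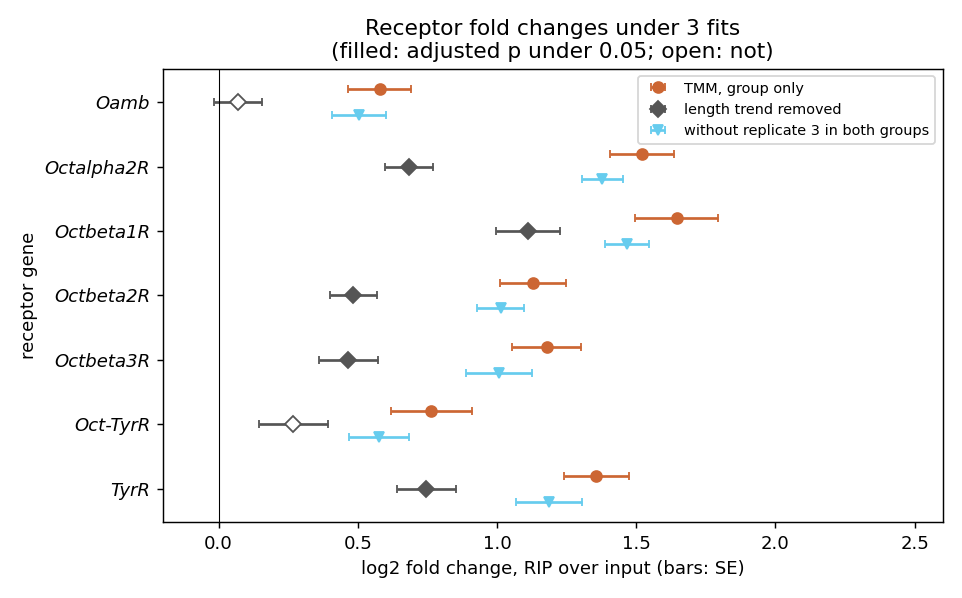
Log2 fold change of RIP over input, with SE, of each receptor in 3 fits: TMM scaling with the group as the only term, the same with the length trend removed, and the same without replicate 3 in both groups. Filled symbols have an adjusted p under 0.05. With the length trend removed, the values run from 0.070 (Oamb) to 1.11 (Octbeta1R), and those of Oamb and Oct-TyrR are open.

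The ratio of a pair of receptor mRNAs within a library does not depend on how libraries were scaled. Ratios of expected counts were formed for all 21 pairs. Relative to Oamb, the recovery of the others was uneven. The log2 ratio of Oamb to Octbeta1R was -0.40 ± 0.10 in input and -1.46 ± 0.19 in RIP (SD, n = 3), a change of -1.06. Oamb to Octalpha2R went from -2.06 ± 0.07 to -2.99 ± 0.11. The ratio of Octbeta2R to Octbeta3R, the neighbours on 3R, was 1.10 ± 0.26 in input and 1.04 ± 0.05 in RIP, which overlap. In 16 of the 21 pairs the 3 RIP ratios did not overlap the 3 input ratios. The same was true of 54.4% of all pairs of genes in the length range. With 3 against 3 samples a two-sided exact permutation test cannot go below p = 0.1, and adjusted over the 21 pairs the smallest value was 0.131, so no pair could pass.

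Levels per length were compared in TPM rescaled to genes outside rRNA, which removes the unequal rRNA share of the groups. In this measure most genes were higher in RIP: the median log2 difference over tested genes was 1.18, and 8061 of 11658 were called higher. The order within a group is therefore the comparison made here. In input the order was Octbeta2R (24.8 ± 1.61 TPM outside rRNA; SD, n = 3), Octalpha2R (19.2 ± 1.18), Octbeta1R (16.5 ± 1.22), Oamb (12.3 ± 0.855), Octbeta3R (8.398 ± 1.27), Oct-TyrR (7.05 ± 0.454) and TyrR (4.10 ± 0.640). The ranges of Octbeta3R and Oct-TyrR overlapped, and those of the other neighbours in this order did not. In RIP the order was Octalpha2R (139 ± 3.06), Octbeta1R (117 ± 1.89), Octbeta2R (108 ± 7.13), Octbeta3R (51.6 ± 1.41), Oamb (46.9 ± 2.49), Oct-TyrR (30.4 ± 2.4975) and TyrR (26.9 ± 1.60). Here Octbeta1R overlapped with Octbeta2R and Oct-TyrR with TyrR. Octbeta2R stood first in all 3 inputs and below Octalpha2R in all 3 RIP libraries. Its share of the summed receptor level was 26.8% ± 0.218 in input and 20.7% ± 0.999 in RIP. TPM divides by a length estimate, which for Octbeta2R was higher in RIP than in input. In counts Octalpha2R stood above Octbeta2R in both groups. The log2 count ratio of Octbeta2R to Octalpha2R was -0.85 ± 0.04 in input and -1.23 ± 0.08 in RIP. The share of Octalpha2R was 20.7% ± 0.220 in input and 26.8% ± 1.04 in RIP, and that of Oamb 13.4% ± 0.864 and 9.02% ± 0.363.

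The mean transcript length that RSEM gives for a gene is weighted by the estimated abundance of its isoforms, so it is a readout of isoform use that the fold changes do not hold. For Octbeta2R this mean was 4426, 4111 and 4405 bases in input and 5520, 5262 and 5652 bases in RIP. The groups do not overlap, and the same was true, with RIP above input, of 29.7% of the 5459 genes whose length varied. The mean rose from 4314 ± 176 to 5478 ± 199 bases (SD, n = 3; two-sided exact permutation p = 0.1, the smallest possible, and 0.3 adjusted over the 6 receptors whose length varied). In a limma fit of log2 length across those genes, chosen after the values were seen, Octbeta2R passed at 0.34 ± 0.04 log2 units (adjusted p = 0.00726). Among them 14.7% were called longer in RIP and 2.89% shorter, and 25 genes (0.458%) were called longer by at least as much as Octbeta2R.

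Octbeta2R has 6 annotated transcripts of sharply different length. Octbeta2R-RE and Octbeta2R-RG, of 6593 and 6672 bases, have a 5′ UTR of 2684 and 2763 bases and a 3′ UTR of 2301 bases that reaches to 12550625 on 3R. The other 4, of 2260 to 3229 bases, have a 5′ UTR of 215 to 1184 bases and a 3′ UTR of 155 to 437 bases that ends at 12552489. Only the long ones hold mir-284. The long and the short transcripts code for the same 1608 bases, apart from Octbeta2R-RF with 1890. Given these lengths, the mean lengths allow the 2 long transcripts a share of 25.6% to 49.98% of Octbeta2R molecules in the inputs and of 59.0% to 78.3% in the RIP libraries. These bounds follow from the deposited means and carry no error of the isoform estimate itself. The length trend was removed with the mean over all 6 libraries, so it does not follow this shift.

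Octbeta1R showed a smaller difference that did not pass. Its mean length was 3506, 3915 and 3725 bases in input and 4115, 3862 and 4495 bases in RIP, where RIP 2 lay below input 2 (limma adjusted p = 0.177). Its only long transcript, Octbeta1R-RE, has the coding sequence of Octbeta1R-RA and a 3′ UTR of 3189 bases in place of 440. For Octbeta3R, whose transcripts differ in coding length (1335 to 3768 bases), the mean was 5792, 6021 and 5969 bases in input and 5263, 5860 and 5541 bases in RIP, which overlap at RIP 2 (limma adjusted p = 0.19). The mean of TyrR was 21.9 bases shorter in RIP (difference -21.9 bases; limma adjusted p = 0.389), without overlap between the groups, as for 11.7% of genes whose length varied. The mean of Oamb differed by 18.6 bases and that of Octalpha2R by -1.38 bases, both with overlap, and that of Oct-TyrR was 3682 bases in every library.

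**Figure D4:**
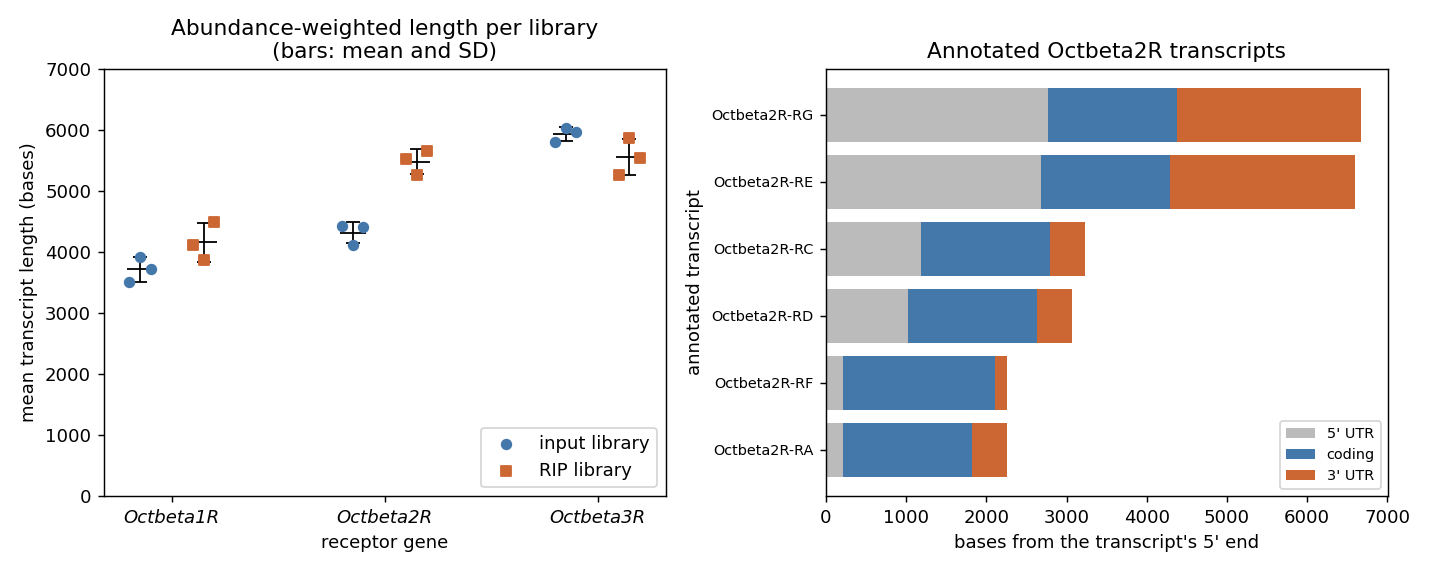
Left, abundance-weighted mean transcript length in bases of the 3 beta class receptors in input (circles) and RIP (squares), with mean and SD. Right, the 6 annotated transcripts of Octbeta2R drawn to length, with 5′ UTR, coding sequence and 3′ UTR. Octbeta2R lies at 4111 to 4426 bases in input and 5262 to 5652 in RIP, and its 2 long transcripts reach 6593 and 6672 bases.

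Of the 5 genes that make or store the amines, 2 rose and 3 did not pass (median log2 fold change 0.11). Of all tested genes 20.2% were called higher. Tbh, the tyramine beta-hydroxylase that turns tyramine into octopamine, rose 2.71-fold, from 7.23, 8.83 and 9.06 CPM to 21.7, 22.8 and 23.8 CPM (log2 1.44 ± 0.12, edgeR adjusted p = 0.000555). Vmat, the vesicular transporter of all monoamines, rose 3.06-fold, from 191, 227 and 246 to 641, 637 and 749 CPM (log2 1.61 ± 0.14, edgeR adjusted p = 0.000556). Both groups stand clear of each other in these genes. The tyrosine decarboxylases that make tyramine gave no call. Tdc1, the decarboxylase used outside neurons, averaged 2.62 CPM over the inputs and 2.70 CPM over the RIP libraries (log2 0.04 ± 0.20, edgeR adjusted p = 0.889). Tdc2, the neuronal one, gave 2.98, 1.75 and 2.63 CPM in inputs 1 to 3 against 1.42, 1.34 and 1.60 CPM in RIP. The groups do not overlap, with RIP below input as for 24.3% of all tested genes (log2 -0.75 ± 0.25, edgeR adjusted p = 0.0596). Tdc2 was called lower with the replicate block (log2 -0.73, edgeR adjusted p = 0.00363), with that block plus removal of the length trend (-0.84), without replicate 3 in both groups (-0.90), without input replicate 2 (-0.93), with upper quartile scaling (-0.86) and without rRNA genes (-0.89), and stood above 0 under library-size scaling and in TPM. prt, a transporter-like gene of the mushroom body, had 6.66 and 7.21 CPM (log2 0.11 ± 0.14, edgeR adjusted p = 0.585). The mean transcripts of Tdc1, Tdc2 and prt are 2177 to 2303 bases long and those of Tbh and Vmat 3772 and 6302. Once the length trend was removed, Tbh stood at log2 0.93 (edgeR adjusted p = 0.00451) and Vmat at 0.87 (edgeR adjusted p = 0.00459), both still called, while Tdc1 stood at -0.064, prt at 0.057 and Tdc2 at -0.86 without a call.

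Of 28 genes listed for receptor signalling inside the cell, 19 rose, 1 fell and 8 did not pass (median log2 fold change 0.86). Which of them serve octopamine or tyramine receptors in these heads was not tested. Over all tested genes 20.2% were called higher and 17.0% lower. Among genes in the length range of the receptors 67.0% were called higher and 0.643% lower. The highest was krz, the arrestin that turns receptors off (3.33-fold, log2 1.73 ± 0.23, edgeR adjusted p = 0.00226). The G protein subunits Ggamma1 (2.92-fold, log2 1.55 ± 0.22) and Gbeta13F (2.80-fold, log2 1.49 ± 0.25) followed. Gbeta76C, the beta subunit of the photoreceptor cascade, was the gene that fell (2.11-fold lower, log2 -1.08 ± 0.26, edgeR adjusted p = 0.0191). Its call ended without RIP replicate 1 or RIP replicate 2 and with the length trend removed. With the replicate block as well as the length trend removed, Gbeta76C was called lower (log2 -0.79, edgeR adjusted p = 1.19e-05). It stood above 0 under library-size scaling and in TPM. The smallest rises called were those of Gprk2, a receptor kinase (log2 0.52 ± 0.13), and Itpr, the calcium channel opened by inositol trisphosphate (log2 0.33 ± 0.11, edgeR adjusted p = 0.0496); both calls ended under several alternatives. With the length trend removed Gprk2 stood at -0.090 and Itpr was called lower (log2 -0.51, edgeR adjusted p = 0.00648). With the length trend removed the list held 7 genes called higher and 5 lower (10.4% and 10.5% of all tested genes were). With the replicate block as well it held 14 higher and 6 lower (27.6% and 22.9% of all tested genes were). Of the 1866 genes in the length range, the first of these fits called 368 higher and 318 lower. The fit with the block called 574 and 555.

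Of the 4 genes for alpha subunits of G proteins, which couple receptors to their effectors, 1 rose and 3 did not pass. Galphas, the stimulatory subunit used by the beta class, gave 23.2, 19.0 and 28.4 CPM in inputs 1 to 3 against 20.3, 19.8 and 22.8 CPM in RIP (log2 -0.17 ± 0.16, edgeR adjusted p = 0.481). Galphaq (log2 0.31 ± 0.26, edgeR adjusted p = 0.421) and Galphai (log2 0.30 ± 0.15, edgeR adjusted p = 0.171) did not pass either, though both were called higher with the replicate block (edgeR adjusted p = 0.00246 and 0.0181). Galphao rose 2.20-fold (log2 1.14 ± 0.24, edgeR adjusted p = 0.0129). Its call ended with the length trend removed (log2 0.57, edgeR adjusted p = 0.119). With the replicate block as well it was called (log2 0.54, edgeR adjusted p = 0.000458). These 4 genes, named for the receptors' known coupling after their values were seen, are shorter than the receptors on average except Galphao (1675 to 2548 bases, and 4189 for Galphao). Of the adenylyl cyclases that make cAMP, rut, Ac3, Ac13E and CG43373 rose by log2 0.77 to 0.90. With the length trend removed they stood at 0.071, 0.21, 0.10 and 0.16 in that order, none with a call. With the replicate block as well only Ac3 among them was called (log2 0.21, edgeR adjusted p = 0.0241). Ac76E (log2 0.048 ± 0.12, edgeR adjusted p = 0.794) and Ac78C (log2 0.25 ± 0.12, edgeR adjusted p = 0.163) did not pass, Ac78C was called higher with the replicate block (edgeR adjusted p = 0.0324), and both were called lower with the length trend removed. The phosphodiesterase dnc and the protein kinase A genes Pka-C1, Pka-R1 and Pka-R2 rose by log2 1.06 to 1.48. With the length trend removed dnc (log2 0.71) and Pka-R1 (0.99) were still called, and Pka-C1 (0.41) and Pka-R2 (0.58) were not. With the replicate block as well each of them was called. These genes too were named after their values were seen.

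Of 9 dopamine and serotonin receptors 8 rose, none fell and 1 did not pass (median log2 fold change 0.94), against 7 of 7 and 1.18 for octopamine and tyramine. The difference between these lists was not tested. Of all tested genes 20.2% were called higher, and of genes in the length range 67.0%. The range ran from 5-HT1B (1.78-fold, log2 0.83 ± 0.14) over DopEcR (0.91 ± 0.12) and 5-HT7 (0.93 ± 0.12) to Dop1R2 (1.19 ± 0.11), Dop2R (1.27 ± 0.15) and Dop1R1 (3.38-fold, log2 1.76 ± 0.16). 5-HT2A was the receptor that did not pass (log2 0.48 ± 0.17, edgeR adjusted p = 0.0708), and it was called higher with the replicate block (log2 0.49, edgeR adjusted p = 2.61e-05). With the length trend removed 4 of the 9 were called higher, at a median of 0.38, beside 5 of 7 at 0.48 (10.4% of all tested genes were). With the replicate block as well, 8 of the 9 were called higher, beside 6 of 7 (27.6% of all tested genes were). Of the 1866 genes in the length range, 368 were called higher with the length trend removed and 574 with the block as well.

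**Figure D5:**
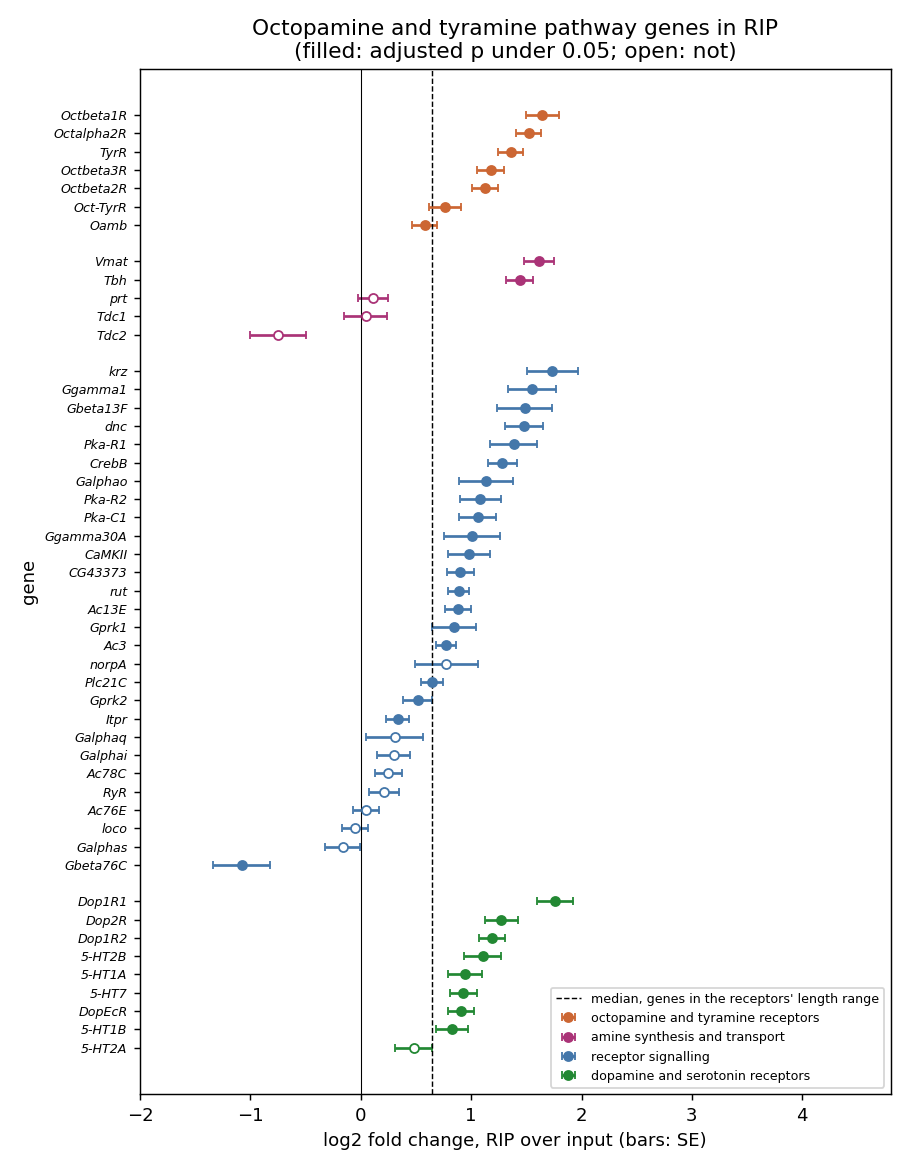
Log2 fold change of RIP over input, with SE, for the 7 octopamine and tyramine receptors, 5 genes of amine synthesis and transport, 28 signalling genes and 9 dopamine and serotonin receptors. Filled points have an adjusted p under 0.05, and the dashed line marks the median of 0.64 for genes in the receptors' length range. 5 of the 7 receptors lie to the right of it by more than their SE.

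The protein-coding genes with the profile most like each receptor were sought by the distance between log2 CPM profiles over the 6 libraries, each centred on its mean, among genes with a mean of at least 5 CPM. Octalpha2R had the closest match, CARPB at a distance of 0.0298 log2 units, followed by hzg (0.0435). Octbeta1R was nearest to nAChRalpha3, an acetylcholine receptor subunit (0.120), and to the splicing regulator mbl (0.125). Octbeta3R was nearest to CG1504 (0.09998) and to Ten-a, a teneurin cell surface protein (0.143), and Octbeta2R to CG14431 (0.0933) and CG17724 (0.107). TyrR was nearest to the transcription factor gene FoxP (0.127) and to Lrch (0.128), Oct-TyrR to CG11537 (0.0916) and CG12576 (0.111), and Oamb to CG4080 (0.0704) and Hcs (0.0844). Among the receptors the closest pair was Octalpha2R and Octbeta1R (0.207), then Octbeta3R and TyrR (0.248). With only 6 libraries in 2 groups, such a distance is mainly a likeness of fold change.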

How the data were processed

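RNA from Zn72D-GFP fly heads was sequenced in 3 input and 3 RIP libraries. RSEM 1.2.30, STAR 2.5.4b, Trim Galore 0.4.5, DESeq2 1.20.0 and the build dm6 are named in the submitters' processing notes; which annotation release and strand setting were used is not given in the sources used here. The deposited values, per the file headers, are TPM, RSEM expected counts, their posterior SDs and a mean transcript length for each gene. The authors' TPM is divided by effective length and includes rRNA. The deposited RSEM interval bounds of TPM were not used.

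Of the gene IDs, 17179 matched the Ensembl annotation directly and 197 through transcripts. Of 9736 genes with a single transcript, 99.2% had the reference length when rounded to whole bases. rRNA genes were those with rRNA in their symbol. Expected counts were rounded, filtered with filterByExpr and TMM scaled (factors 0.478 to 0.608 in input, 1.69 to 2.01 in RIP). They were tested with edgeR 4.0.16 (R 4.3.3) by quasi-likelihood; the model held the group alone, and p was adjusted over all 11670 genes (Benjamini-Hochberg, 0.05). The F statistic of a fold change gave its SE. TPM was rescaled to genes outside rRNA to set levels side by side; the pseudocount of its limma 3.58.1 tests was 1, with 0.1 as an alternative. The length trend was a lowess curve (span 0.3) of each library on log2 mean length, entered as an offset.

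The members and lists were chosen with earlier results of these data known. Genes named are the receptors, TyrRII, all amine synthesis genes, the 3 highest and 3 lowest called genes of the other lists, and the 2 nearest profiles of each receptor; others named were chosen after their values were seen. All 6 libraries were kept, since replicates of a group differed beyond sampling noise (chi-square over degrees of freedom, 15.8 to 142). The labels number both groups. Deviations from the group means correlated at 0.643, 0.580 and 0.832 for numbers 1, 2 and 3 across the groups. Input 2 with RIP 1 (0.586) and input 1 with RIP 2 (0.609) correlated about as well. These values therefore set only number 3 apart and do not tell numbers 1 and 2 from each other. The numbers were taken as pairs in an alternative with the replicate block. The fits were tested on simulated data. Sequences were not used here.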

Additional observations from a re-analysis of the deposited data

How the results depend on the processing

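Over 20 alternatives, Octbeta1R, Octbeta2R, Octbeta3R, TyrR and Octalpha2R were called higher in each one. Their highest adjusted p values were 0.00806, 0.0136, 0.0282, 0.00875 and 0.00696. Oamb lost its call in 2 alternatives, with the length trend removed (log2 0.070) and with the replicate block and the length trend removed (0.074), and Oct-TyrR in 1, with the length trend removed (0.27); the cause was not tested. Relative to the median of all genes, the receptors stayed above 0 in all 20, at 0.012 or more for Oamb and 1.05 or more for Octbeta1R. That median stood at 0.058 as reported, -0.057 with upper quartile scaling, -0.086 without rRNA genes, 1.90 under library-size scaling, 2.54 in log2(TPM + 1), 3.25 in log2(TPM + 0.1) and 1.18 in log2(TPM outside rRNA + 1). With the replicate block no receptor call changed.

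Over all genes, 2362 were called higher and 1989 lower. The counts were 9386 and 173 under library-size scaling, 11296 and 25 in log2(TPM + 1), 11315 and 27 in log2(TPM + 0.1), 8061 and 318 in TPM outside rRNA, 3821 and 3230 with the replicate block, and 1209 and 1231 with the length trend removed. Without replicate 3 in both groups 3498 were lower; over the fits without a library, 1593 to 3015 were higher and 1409 to 3498 lower.

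Of the amine synthesis and transport genes, 5 were higher under library-size scaling and in both TPM versions, and 4 in TPM outside rRNA. The number lower was 1 with upper quartile scaling, without rRNA genes, with the replicate block and with the replicate block and the length trend removed, and 0 to 1 without a library. Of the signalling genes, 7 were higher with the length trend removed; the number lower was 0 under library-size scaling and in all TPM versions, 5 with the length trend removed, 6 with the replicate block and the length trend removed, and 0 to 1 without a library. Of the dopamine and serotonin receptors, 4 were higher with the length trend removed.

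Among the genes of the 3 lists, 14 log2 fold changes turned sign in at least 1 alternative. Under library-size scaling, in log2(TPM + 1), in log2(TPM + 0.1) and in TPM outside rRNA these were Tdc2 (1.11, 1.49, 2.45 and 0.48), Gbeta76C (0.74, 2.31, 2.33 and 0.29), Galphas (1.68, 3.09, 3.25 and 1.21) and loco (1.78, 2.98, 3.30 and 1.25); loco also turned with no expression filter (0.0020). With the length trend removed, and with the block as well, they were Tdc1 (-0.064 and -0.071), Galphas (0.016 and 0.023), Ac76E (-0.63 and -0.63), Ac78C (-0.49 and -0.48), Plc21C (-0.11 and -0.12), Itpr (-0.51 and -0.51), RyR (-0.71 and -0.71) and Gprk2 (-0.090 and -0.094), and with both norpA (-0.029). With upper quartile scaling and without rRNA genes they were Tdc1 (-0.072 and -0.10) and Ac76E (-0.057 and -0.095), and prt turned without rRNA genes (-0.032). Without replicate 3 in both groups Tdc1 (-0.090) and Ac76E (-0.022) turned. Without a single library the ranges that cross 0 were those of Tdc1 (-0.063 to 0.19), prt (-0.021 to 0.22), Galphaq (-0.025 to 0.59), Galphas (-0.34 to 0.014), Ac76E (-0.073 to 0.18) and loco (-0.22 to 0.076).

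Without a single library, the RIP minus input difference in mean length ran from 1063 to 1272 bases for Octbeta2R, from 273 to 590 for Octbeta1R, from -526 to -227 for Octbeta3R and from 10.3 to 31.7 for Oamb, and that of Octalpha2R crossed 0 (-5.71 to 3.37). Of the 21 receptor ratios, 7 moved by over 1.5 times. The change of Octbeta2R over Octbeta3R crossed 0 (-0.20 to 0.031), and that of TyrR over Octalpha2R ran from -0.23 to -0.036, the latter without input replicate 2. The lowest receptor count was 112 reads (TyrR in input 1), and TyrRII had 18 to 47 reads in input; how depth bears on these values was not tested.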
